A study of Mus musculus with 4 samples.

Results

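The transcripts of 10 G protein-coupled receptors that time the differentiation of oligodendroglial cells (OGCs) were followed in cultured OGCs with and without Zfp276, a zinc finger transcription factor of oligodendrocytes (OLs). The receptors were Gpr17, Gpr37, Adgrg1, S1pr1, S1pr5, Lpar1, Chrm1, Chrm3, P2ry1 and Oprk1. They were chosen by gene symbol for their role in the lineage, with earlier results of these data known. All 10 were found once each among the 53465 genes listed. Primary OGCs were taken from the forebrain of mice at postnatal day 2 to 4, put through a depletion step for microglia and kept for 3 days in differentiation conditions before RNA-Seq. There were 2 ctrl libraries with the genotype Zfp276 flox/flox and 2 Zfp276cko libraries that carried the Sox10::Cre transgene in addition, so both genotypes shared the floxed allele. Each library came from a separate preparation that pooled 3 mice. The Cre came from a BAC transgene under Sox10 control and acts from the precursor stage onwards, and the mice bred for cultures had, per the methods, also been crossed to a Rosa26 stopflox tdTomato allele. Their background was mixed from C3H and C57Bl/6J. Ctrl cells lacked Cre, so effects of the Cre transgene and of the Zfp276 deletion cannot be told apart.

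These receptors sit in the cell membrane and pass an outside signal to G proteins. Those that couple to Gi lower cyclic AMP, those that couple to Gq activate phospholipase C, and those that couple to Gna12 and Gna13 activate the small GTPase Rhoa. In the OL lineage some of them mark or hold the precursor (OPC) stage, Gpr17 marks the premyelinating stage between OPC and OL, and others accumulate as OLs mature. Several are studied as drug targets for remyelination, because blocking or activating them alters how readily OPCs become OLs.

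The libraries held 21068322 to 26599809 counted reads, and values are given as normalized counts, which are counts scaled to the mean effective library size. Zfp276 itself stood at 1648 (ctrl 1), 2230.3 (ctrl 2), 489.5 (Zfp276cko 1) and 503 (Zfp276cko 2) normalized counts, which left 25.6% of the ctrl level. Exons outside the floxed part stay in the gene count. The defining lineage markers Sox10, Olig2, Pdgfra and Mbp were present in all 4 libraries at 8392 normalized counts or more. The ctrl replicates lay further apart than the Zfp276cko replicates, with a biological coefficient of variation of 0.354 against 0.0480, so each receptor is given for every library and each tested one also without either ctrl library. Markers of other cells were present too. Summed normalized counts for ctrl replicates 1 and 2 and Zfp276cko replicates 1 and 2 were 67162, 38389.6, 55309 and 56924 for 14 microglia markers, 48936, 46032, 45205 and 42885 for 10 astrocyte markers, 3492, 12635, 10859 and 11551 for 11 neuron markers, and 10422, 4716, 2923 and 2717 for 13 fibroblast and vessel markers. Cldn5, a gene of vessel endothelium, had 0 counts in all 4 libraries. Pecam1, Kdr and Flt1, which endothelium also expresses, had between 23 and 187 counts per library. The 20 interferon response genes summed to 17051 and 7541 in ctrl and to 113125 and 110855 in Zfp276cko cells. The part of these cells and of the interferon response in the receptor values was not tested.

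Of the 10 receptors, 5 had both Zfp276cko values under the lower ctrl value (Gpr17, Gpr37, S1pr5, Lpar1 and S1pr1), 3 had both above the higher ctrl value (P2ry1, Chrm1 and Oprk1), and in Adgrg1 and Chrm3 the genotypes overlapped. Of all 15766 tested genes, 23.7% lay below and 26.8% above in this way, 50.5% in either direction. A call needed an adjusted p up to 0.05, a log2 fold change of 0.6 or more in size and a mean of 20 or more normalized counts. By edgeR's quasi-likelihood test it was given to 0 lower and 0 higher receptors, and to 0 genes overall (0% in each direction). By unadjusted p alone (up to 0.05), 4 receptors were lower and 3 higher, against 7.3% and 8.33% of tested genes, and with the other 2 criteria 4 were lower and 2 higher, against 3.02% and 5.11%. DESeq2 called 3 receptors lower (Lpar1, Gpr17 and Gpr37) and 1 higher (P2ry1), against 2.3% and 3.05% of the genes to which it gave an adjusted p (5.35% in either direction). Chrm3 was too low to be tested by edgeR, and Oprk1 passed the filter on low counts only through the Zfp276cko libraries. With 2 libraries against 2, no exact permutation test can fall below p = 0.333.

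**Figure D1:**
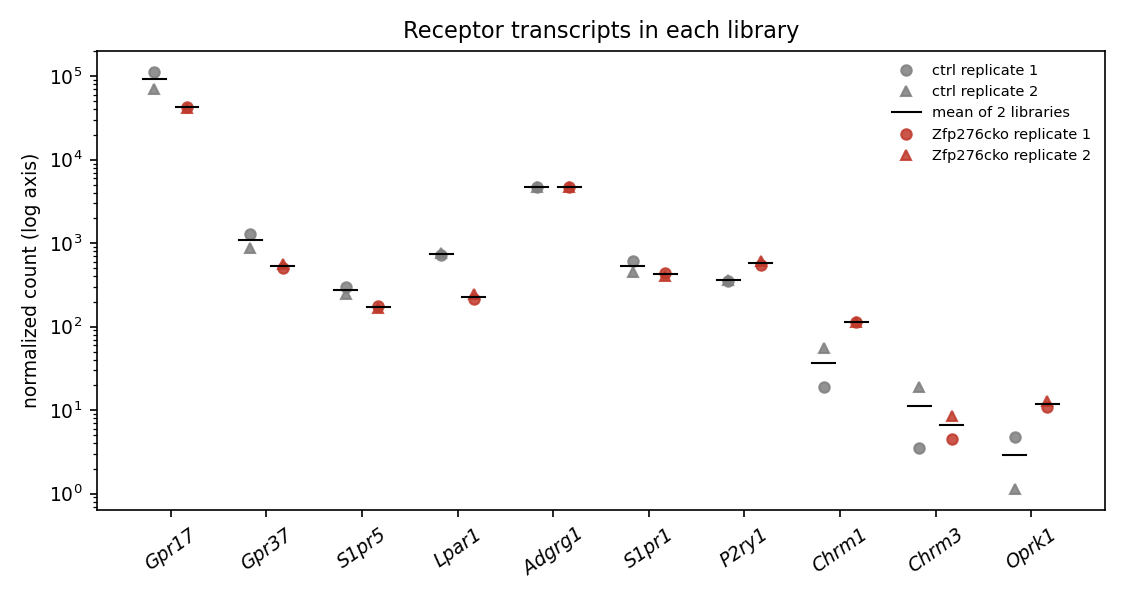
Normalized counts (log axis) of the 10 receptors in each of the 4 libraries, with ctrl in grey and Zfp276cko in red, circles for replicate 1, triangles for replicate 2 and a line at the mean. Lpar1 and Gpr17 lie lower in both Zfp276cko libraries, P2ry1 and Chrm1 lie higher, and the 4 values of Adgrg1 lie between 4668 and 4729.6.

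Gpr17 is the receptor that marks committed, premyelinating cells. It responds to uracil nucleotides and cysteinyl leukotrienes in some assays, couples mainly to Gi and holds back the last step to the myelinating OL. In the mm10 build, which is used for all positions here, it occupies chromosome 18 from 31942997 to 31949636 (minus strand). Gpr17 stood at 113405 (ctrl 1), 69766 (ctrl 2), 43296 (Zfp276cko 1) and 41092 (Zfp276cko 2) normalized counts. The genotypes did not overlap, and the ctrl replicates themselves differed by 0.70 on the log2 scale. By raw count it ranked 8th and 12th among all genes in the ctrl libraries and 19th and 20th in the Zfp276cko libraries. Zfp276cko cells had 46.1% of the ctrl level, with means of 42194 ± 1558 (SD, n = 2) and 91586 ± 30857 (SD, n = 2). The log2 fold change was −1.12 (SE 0.28, edgeR adjusted p = 0.207), and DESeq2 gave an adjusted p of 0.00212. It came to −0.72 with ctrl replicate 1 left out and to −1.44 with ctrl replicate 2 left out. In these bulk libraries, fewer cells of a kind and less RNA per cell cannot be told apart.

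One exon of Lims2, which encodes an adaptor protein of integrin adhesions, overlaps the exons of Gpr17 over 121 bp on the opposite strand. Lims2 had 3968 and 2032 normalized counts in ctrl against 1661 and 1529 in Zfp276cko cells, which is a small part of the Gpr17 count. The strand setting of the read counting is not stated in the sources used here, and how reads in the shared stretch were assigned was not tested.

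Gpr37, S1pr5 and Lpar1 are receptors of maturing OLs. Gpr37, an orphan receptor related to the endothelin receptors for which prosaposin has been proposed as a ligand, slows the transition to the myelinating OL (chromosome 6, 25665878 to 25690729, minus strand). It stood at 1302 (ctrl 1), 875 (ctrl 2), 498 (Zfp276cko 1) and 563 (Zfp276cko 2) normalized counts. Both Zfp276cko values were below both ctrl values. The mean of 1089 ± 302 (SD, n = 2) in ctrl stood against 530.2 ± 46.0 (SD, n = 2), a log2 fold change of −1.04 (SE 0.23, edgeR adjusted p = 0.186, 0.00661 from DESeq2). Without ctrl replicate 1 it was −0.72, and without ctrl replicate 2 it was −1.31.

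S1pr5 is the sphingosine-1-phosphate receptor of OLs (chromosome 9, 21242912 to 21248443, minus strand). It stood at 300.4 (ctrl 1), 248 (ctrl 2), 178 (Zfp276cko 1) and 167 (Zfp276cko 2) normalized counts. The genotypes did not overlap. The means were 274 ± 37.3 (SD, n = 2) and 172 ± 8.19 (SD, n = 2), with a log2 fold change of −0.67 (SE 0.20, edgeR adjusted p = 0.251, 0.171 from DESeq2). The value came to −0.52 with ctrl replicate 1 left out and to −0.81 with ctrl replicate 2 left out.

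Lpar1, a receptor for lysophosphatidic acid that is expressed in OLs at the time of myelination, showed the clearest difference of the 10 receptors by its p. Its position is chromosome 4, 58435255 to 58553898, minus strand. It stood at 716 (ctrl 1), 753 (ctrl 2), 216 (Zfp276cko 1) and 243 (Zfp276cko 2) normalized counts. Each genotype kept to a narrow range, and the Zfp276cko level was 31.3% of ctrl. The means of 734 ± 26.1 (SD, n = 2) and 229.7 ± 19.0 (SD, n = 2) gave a log2 fold change of −1.68 (SE 0.14, edgeR adjusted p = 0.0962, 1.55e-12 from DESeq2). Its unadjusted p ranked 29th of the 15766 tested genes. Without either ctrl library the value stayed between −1.71 and −1.65. Fibroblasts and vessel cells can also express Lpar1. Their 13 markers summed to 10422 and 4716 in ctrl against 2923 and 2717 in Zfp276cko cells. Of the 12 that were tested, 3 lay below the ctrl range in both Zfp276cko libraries, 1 lay above and 8 overlapped. Acta2, one of the 3, had 914 and 284 against 88.7 and 78.2. Col1a2, one of the 8, had 2703 and 41.6 in ctrl against 49.8 and 41.2. Their part in the Lpar1 difference was not tested.

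Adgrg1, S1pr1, P2ry1, Chrm1 and Chrm3 belong to the OPC stage. Adgrg1 (also called Gpr56) is an adhesion receptor that keeps OPCs dividing through Gna12, Gna13 and Rhoa. It lies on the plus strand of chromosome 8 from 94974751 to 95014217. Adgrg1 stood at 4689 (ctrl 1), 4729.6 (ctrl 2), 4719 (Zfp276cko 1) and 4668 (Zfp276cko 2) normalized counts. The genotypes overlapped, and all 4 libraries lay close together, although 12.7% of genes with a mean of at least 20 were 2-fold or more apart between the ctrl libraries. The log2 fold change was −0.0049 (SE 0.09, edgeR adjusted p = 0.986), with −0.010 once ctrl replicate 1 was left out and −0.012 once ctrl replicate 2 was. Over all alternatives it lay between −0.02 and 0.02, so that its sign changed with the setting.

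S1pr1 is the sphingosine-1-phosphate receptor found mainly on OPCs in this lineage and is also strong in vessels and astrocytes (chromosome 3, 115710433 to 115715072, minus strand). It stood at 607 (ctrl 1), 456 (ctrl 2), 438 (Zfp276cko 1) and 409 (Zfp276cko 2) normalized counts. Ctrl replicate 2 lay close to the Zfp276cko libraries, and ctrl replicate 1 stood above the other 3. The log2 fold change of −0.33 (SE 0.19, edgeR adjusted p = 0.482) was smaller than the distance of 0.41 between the ctrl replicates, and it came to −0.11 with ctrl replicate 1 left out and to −0.53 with ctrl replicate 2 left out.

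P2ry1, an ADP receptor that couples to Gq and is linked to OPC migration, lies on the plus strand of chromosome 3 from 61002795 to 61008982. It stood at 354 (ctrl 1), 367 (ctrl 2), 554 (Zfp276cko 1) and 618 (Zfp276cko 2) normalized counts. Both Zfp276cko libraries stood above both ctrl libraries, and the replicates of each genotype were close. The means of 360.3 ± 9.22 (SD, n = 2) and 586 ± 45.2 (SD, n = 2) gave a log2 fold change of 0.70 (SE 0.14, edgeR adjusted p = 0.168, 0.0260 from DESeq2). It remained at 0.68 and 0.71 without ctrl replicate 1 and ctrl replicate 2. The antisense gene Gm37035 overlaps the P2ry1 exons over 992 bp and had between 1 and 5 counts per library. Shorter overlaps on the opposite strand exist for Chrm1 and S1pr5. Gm22820 overlaps the Chrm1 exons over 329 bp and had 0 counts in each library, and Gm48303 overlaps the S1pr5 exons over 51 bp.

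Chrm1 and Chrm3 encode muscarinic acetylcholine receptors that couple to Gq, and muscarinic antagonists favour OPC differentiation. Chrm1 (chromosome 19, 8663789 to 8683587, plus strand) stood at 16 (ctrl 1), 49 (ctrl 2), 126 (Zfp276cko 1) and 131 (Zfp276cko 2) raw counts. As normalized counts these were 19.0, 55.1, 114 and 113, so both Zfp276cko libraries were above both ctrl libraries while the ctrl replicates were 1.54 apart on the log2 scale. The means were 37.1 ± 25.6 (SD, n = 2) and 113 ± 1.03 (SD, n = 2), and the log2 fold change was 1.60 (SE 0.55, edgeR adjusted p = 0.301, 0.134 from DESeq2). It came to 1.04 with ctrl replicate 1 left out and to 2.55 with ctrl replicate 2 left out. Neurons also express Chrm1. The 11 neuron markers summed to 3492 and 12635 in ctrl against 10859 and 11551 in Zfp276cko cells, and their part in the Chrm1 values was not tested.

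Chrm3 (chromosome 13, 9875486 to 10360847, minus strand) stood at 3 (ctrl 1), 17 (ctrl 2), 5 (Zfp276cko 1) and 10 (Zfp276cko 2) counts. The genotypes overlapped. The summed counts gave a ratio of Zfp276cko to ctrl of 0.572 with an exact 95% interval of 0.273 to 1.18, which covers counting error only, so a difference was not detectable at this depth.

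Oprk1, the kappa opioid receptor, couples to Gi, and its agonists promote OL differentiation. It lies on chromosome 1 from 5588466 to 5606131 on the plus strand. It stood at 4 (ctrl 1), 1 (ctrl 2), 12 (Zfp276cko 1) and 15 (Zfp276cko 2) counts. Both Zfp276cko libraries were above both ctrl libraries, all at a level near the limit of detection. The ratio of the summed counts was 4.12, with an exact 95% interval for counting error of 1.56 to 13.7. The log2 fold change of 1.99 (SE 0.70, edgeR adjusted p = 0.308) rests on these few reads, and its mean is under the threshold of 20 normalized counts for a call. Oprk1 was tested only because its Zfp276cko counts passed the filter on low counts. Leaving out ctrl replicate 1 moved the log2 fold change to 3.27, with 1 read left on the ctrl side. Leaving out ctrl replicate 2 moved it to 1.29.

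**Figure D2:**
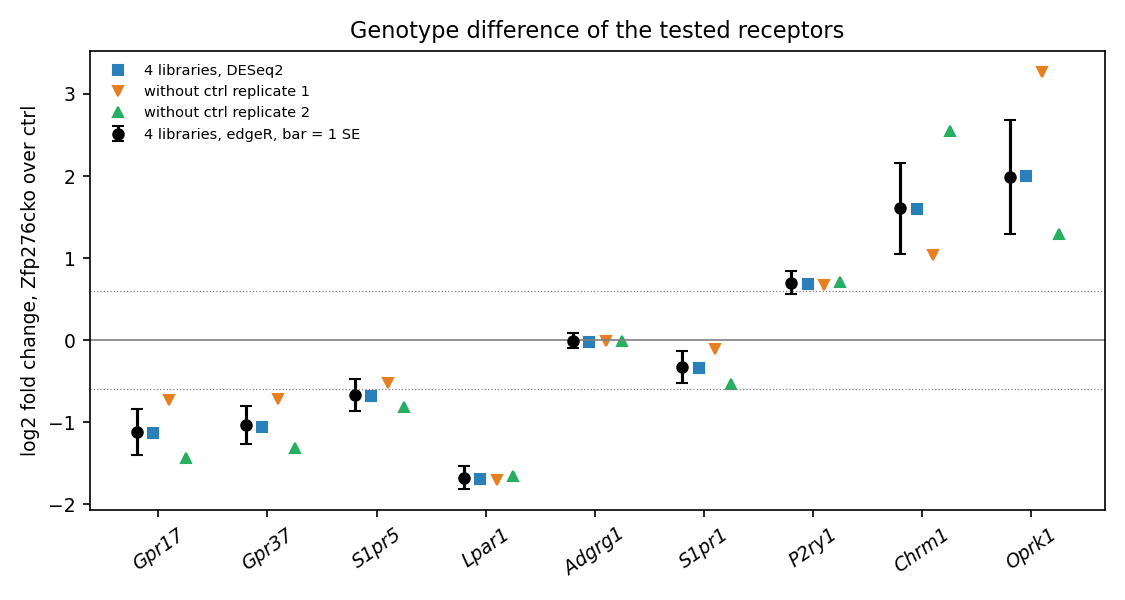
Log2 fold change of Zfp276cko over ctrl for the 9 tested receptors, from edgeR with 1 standard error (black), from DESeq2 (blue) and from edgeR without ctrl replicate 1 (orange) or 2 (green); dotted lines mark 0.6 in either direction. Lpar1 and P2ry1 hardly move when a ctrl library is left out, whereas Gpr17 moves from −0.72 to −1.44 and Chrm1 from 1.04 to 2.55.

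Levels of different receptors were compared per kb of exonic sequence, as normalized CPM per kb. In ctrl cells Gpr17 stood at 746 ± 251 (SD, n = 2) and Adgrg1 at 36.8 ± 0.226. Gpr37 (7.59 ± 2.11), S1pr1 (7.38 ± 1.48) and Lpar1 (7.24 ± 0.257) followed, and as neighbours in this order they overlapped in their library values. S1pr5 at 4.64 ± 0.632 and P2ry1 at 3.55 ± 0.0909 came next and were separate from each other and from Lpar1. Chrm1 at 0.242 ± 0.167 overlapped with Chrm3 at 0.0768 ± 0.0745, and Oprk1 was lowest at 0.0136 ± 0.0118.

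In Zfp276cko cells Gpr17 (344 ± 12.7, SD, n = 2) and Adgrg1 (36.6 ± 0.282) were again the highest by level per kb. Below them the order differed. S1pr1 at 5.88 ± 0.285 and P2ry1 at 5.78 ± 0.446 held ranks 3 and 4 and overlapped with each other, and Gpr37 (3.70 ± 0.321), S1pr5 (2.92 ± 0.139) and Lpar1 (2.27 ± 0.187) followed without overlap between neighbours. P2ry1 held rank 7 in ctrl and rank 4 in Zfp276cko cells, and Lpar1 held rank 5 and rank 7. Chrm1 (0.739 ± 0.00675) came next, while Oprk1 (0.0549 ± 0.00663) and Chrm3 (0.0444 ± 0.0195) overlapped at the bottom.

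**Figure D3:**
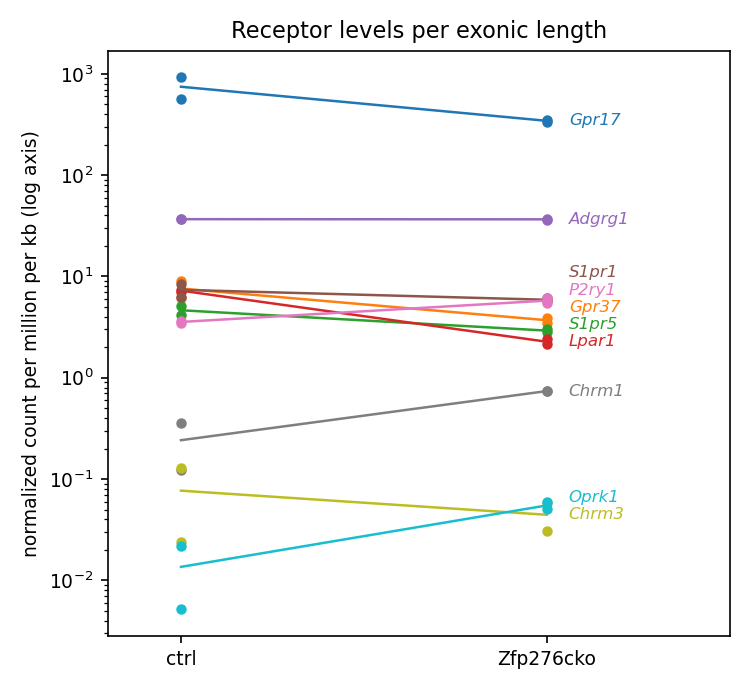
Level of each receptor per kb of exonic length (log axis) in ctrl and Zfp276cko cells; points are the 2 libraries of a genotype and lines join the means. Gpr17 is highest in both genotypes, and the lines of Lpar1 and P2ry1 cross between 7.24 and 2.27 and between 3.55 and 5.78.

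A ratio of 2 receptors within a library does not depend on the scaling between libraries. The pairs were chosen after the values were seen and are given as a description. Gpr17 and Gpr37 kept a similar ratio per kb, at 102 (ctrl 1), 93.1 (ctrl 2), 102 (Zfp276cko 1) and 85.3 (Zfp276cko 2), so the genotypes overlapped. The ratio of S1pr1 to S1pr5 was 1.66 and 1.51 in ctrl against 2.02 and 2.01 in Zfp276cko cells. Lpar1 was 2.02 and 2.05 times as high as P2ry1 in ctrl, and 0.391 and 0.394 times in Zfp276cko cells, which turns the order of this pair in both libraries.

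**Figure D4:**
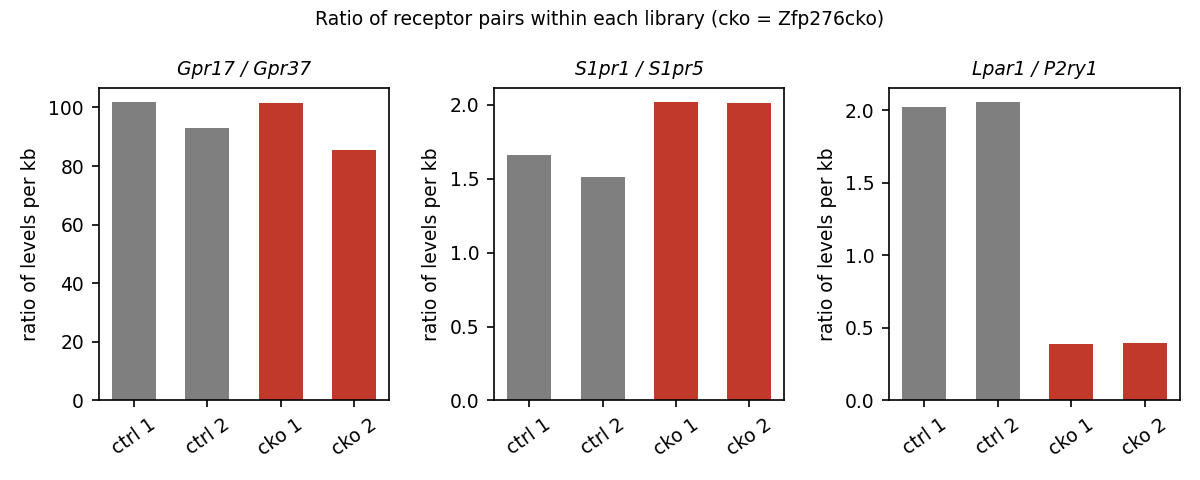
Ratio of the levels per kb of 3 receptor pairs in each library, with bars starting at 0, ctrl in grey and Zfp276cko in red. Gpr17 over Gpr37 stays between 85.3 and 102, while Lpar1 over P2ry1 lies at 2.02 and 2.05 in ctrl and at 0.391 and 0.394 in Zfp276cko cells.

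Promoter sequences of RefSeq on GRCm38.p6, which run from 250 bases before to 50 bases after a transcript start, were found for 6 of the 10 receptors, with 9 windows in all. They were not found for Gpr17, S1pr1, Chrm1 and Oprk1. They were searched on both strands for AAAGGG, the letters that the study's Zfp276 consensus writes without an ambiguity code, although it allows a mismatch at the last of them, and for ACAAAG, a form of the element that Sox proteins bind. AAAGGG occurred in 1 of the 9 windows, against 21.5% of all 32851 promoter windows, and ACAAAG in 3 of 9, against 18.7%. Shown here is a window of Adgrg1, whose libraries overlapped between genotypes and which alone among the 9 searched windows holds AAAGGG. Whether a window of Gpr17 holds it was not tested. Also shown are the window of Lpar1 with ACAAAG closest to the start, and the window of P2ry1, which holds neither. Matches are in capitals.
Adgrg1, chr8:94976859-94977158, plus strand: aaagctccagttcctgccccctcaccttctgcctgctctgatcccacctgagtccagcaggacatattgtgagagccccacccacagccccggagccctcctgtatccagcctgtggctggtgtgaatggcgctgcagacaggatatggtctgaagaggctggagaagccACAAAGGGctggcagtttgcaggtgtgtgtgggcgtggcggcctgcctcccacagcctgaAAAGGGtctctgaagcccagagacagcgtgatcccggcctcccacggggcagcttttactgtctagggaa
Lpar1, chr4:58553244-58553543, minus strand: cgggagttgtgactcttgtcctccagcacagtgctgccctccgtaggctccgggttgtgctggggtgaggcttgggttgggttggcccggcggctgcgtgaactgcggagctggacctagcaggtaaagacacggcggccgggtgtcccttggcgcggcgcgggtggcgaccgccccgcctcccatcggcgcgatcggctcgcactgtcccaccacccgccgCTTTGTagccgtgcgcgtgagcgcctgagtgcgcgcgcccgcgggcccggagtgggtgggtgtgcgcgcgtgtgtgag
P2ry1, chr3:61002535-61002834, plus strand: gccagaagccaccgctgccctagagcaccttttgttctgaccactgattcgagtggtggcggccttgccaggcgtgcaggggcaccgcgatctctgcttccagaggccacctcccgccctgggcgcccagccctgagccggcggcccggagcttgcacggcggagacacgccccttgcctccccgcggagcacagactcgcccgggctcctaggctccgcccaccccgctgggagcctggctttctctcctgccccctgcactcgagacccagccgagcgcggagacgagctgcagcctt

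In Adgrg1 the matches to AAAGGG begin 78 and 20 bases before the start, and the first of them shares 4 bases with a match to ACAAAG that begins 80 bases before the start. In Lpar1 the match is on the opposite strand, 28 bases before the start. These matches describe the letters in the windows, and binding was not measured in these libraries.

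The other receptors of the same families were described from a list of 31 genes, of which 19 were tested. Over the 19, 1 (5.26%) was under and 7 (36.8%) were over the ctrl range in each Zfp276cko library, against 23.7% and 26.8% of all tested genes. The median log2 fold change was 0.20, against −0.0013 over all tested genes. None was called by edgeR or DESeq2. An unadjusted p up to 0.05 was reached by 3, all higher, against 8.33% of all tested genes higher and 15.6% in either direction. Gpr37l1, the close relative of Gpr37, had 14952 and 9214 normalized counts in ctrl against 8525 and 8177 in Zfp276cko cells (log2 fold change −0.53, SE 0.26, edgeR adjusted p = 0.417). Like Gpr37 it was lower in both Zfp276cko libraries, but ctrl replicate 2 lay near them.

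S1pr3, a further sphingosine-1-phosphate receptor, had 443 and 833 normalized counts in ctrl against 1124 and 987 in Zfp276cko cells (0.73 on the log2 scale, edgeR adjusted p = 0.395), and S1pr2 overlapped between genotypes (0.15, adjusted p = 0.746). Of the lysophosphatidic acid receptors, Lpar5 (0.83) and Lpar2 (0.43) lay above both ctrl libraries while Lpar6 (−1.16) overlapped, with adjusted p-values between 0.314 and 0.504. Lpar1 alone among the tested members of its family lay below the ctrl range in each Zfp276cko library, and differences between family members were not tested. Oprl1, the nociceptin receptor, had 367 and 329 normalized counts in ctrl against 534 and 533 in Zfp276cko cells (0.62, adjusted p = 0.187). Adgrg6, an adhesion receptor needed for Schwann cell myelination, had 646 and 1089 in ctrl against 1467 and 1607 in Zfp276cko cells (0.82, adjusted p = 0.293).

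Nucleotide and leukotriene receptors are related to Gpr17. P2ry6 overlapped between genotypes (0.01, edgeR adjusted p = 0.986), as did P2ry12 (−0.28), P2ry13 (−1.01), P2ry14 (−1.39) and Cysltr1 (−0.43), with standard errors between 0.98 and 1.55 for these 4, and Chrm4 (−0.08). P2ry2 (0.70, adjusted p = 0.552) lay above both ctrl libraries. P2ry12 and P2ry13 are receptors of microglia, and both were highest in ctrl replicate 1, the library with the largest sum of microglia markers. There P2ry13 had 332 normalized counts against 5.63 in ctrl replicate 2. Single microglia genes differed in this order. Csf1r had 11409 in ctrl replicate 1 and 1850 in ctrl replicate 2, whereas Aif1 had 1248 and 3204. The part of microglia in these receptor values was not tested.

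Genes that supply or remove the ligands numbered 22 in the list, and 16 were tested. Of these, 4 (25%) were under and 4 (25%) over the ctrl values, close to the 23.7% and 26.8% of all tested genes. The median log2 fold change was −0.0014, and 0 were called by edgeR. Tgm2 encodes transglutaminase 2, a ligand of Adgrg1 that microglia provide to OPCs. It stood at 1039 (ctrl 1), 1372 (ctrl 2), 5034 (Zfp276cko 1) and 4761 (Zfp276cko 2) normalized counts, so it was 4.06-fold higher (log2 fold change 2.02, SE 0.17, edgeR adjusted p = 0.0962, 1.20e-18 from DESeq2) while the libraries overlapped in its receptor. Alox5, which starts leukotriene synthesis, had 459 and 431 in ctrl against 160.2 and 173 in Zfp276cko cells (−1.42, edgeR adjusted p = 0.111, 3.41e-07 from DESeq2). Spns2, an exporter of sphingosine-1-phosphate, had 1159 and 1250.2 in ctrl against 776 and 816 in Zfp276cko cells (−0.60, edgeR adjusted p = 0.148, 0.0107 from DESeq2). Ache, which breaks down acetylcholine, had a log2 fold change of 0.90 (edgeR adjusted p = 0.318) at a mean of 32.2 normalized counts in ctrl.

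Of 24 tested G protein subunits, 10 (41.7%) lay below and 5 (20.8%) above both ctrl values, against 23.7% and 26.8% of all tested genes. Their median log2 fold change was −0.11. Gng12 had 17210 and 16851 normalized counts in ctrl against 10857 and 11754 in Zfp276cko cells (−0.59, edgeR adjusted p = 0.162, 9.05e-04 from DESeq2), Gng2 had 1394 and 1695 in ctrl against 2326 and 2779 in Zfp276cko cells (0.73, edgeR adjusted p = 0.181, 0.0165 from DESeq2), and Gng8 (−1.13) was low throughout. Gna13, which acts downstream of Adgrg1, had a log2 fold change of 0.47 (adjusted p = 0.304).

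Of 22 tested effectors, 11 (50%) were under and 3 (13.6%) over the ctrl values, against 23.7% and 26.8% of all tested genes. Their median log2 fold change was −0.22. Plcb1, a phospholipase C isoform that Gq-coupled receptors such as Chrm1 and P2ry1 activate, stood at 3545 (ctrl 1), 2793 (ctrl 2), 1094 (Zfp276cko 1) and 1079.9 (Zfp276cko 2) normalized counts. The genotypes did not overlap (log2 fold change −1.54, SE 0.15, edgeR adjusted p = 0.100, 2.62e-11 from DESeq2), in the opposite direction to Chrm1 and P2ry1. The other isoforms Plcb2 (0.72), Plcb3 (−0.07) and Plcb4 (0.19) overlapped between genotypes. Among the adenylyl cyclases, which Gi-coupled receptors inhibit, Adcy1 (−0.86) and Adcy5 (−0.48) lay below and Adcy3 (0.77) above both ctrl libraries, with edgeR adjusted p-values between 0.157 and 0.189. DESeq2 called Adcy1 (adjusted p = 0.00643) and Adcy3 (0.00813) but not Adcy5 (0.0828).

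The 22 desensitization genes encode receptor kinases, arrestins and RGS proteins, which end G protein signals. All were tested, and 5 (22.7%) were under and 5 (22.7%) over the ctrl values, close to the 23.7% and 26.8% of all tested genes. Their median log2 fold change was −0.10. Rgs9 had 330.1 and 231 normalized counts in ctrl against 560.1 and 552 in Zfp276cko cells (0.99, edgeR adjusted p = 0.186, 0.0163 from DESeq2). Rgs3 (−0.48), Rgs4 (−1.05) and Rgs7 (−0.53) lay below both ctrl libraries, with edgeR adjusted p-values between 0.234 and 0.282, and were not called by DESeq2.

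**Figure D5:**
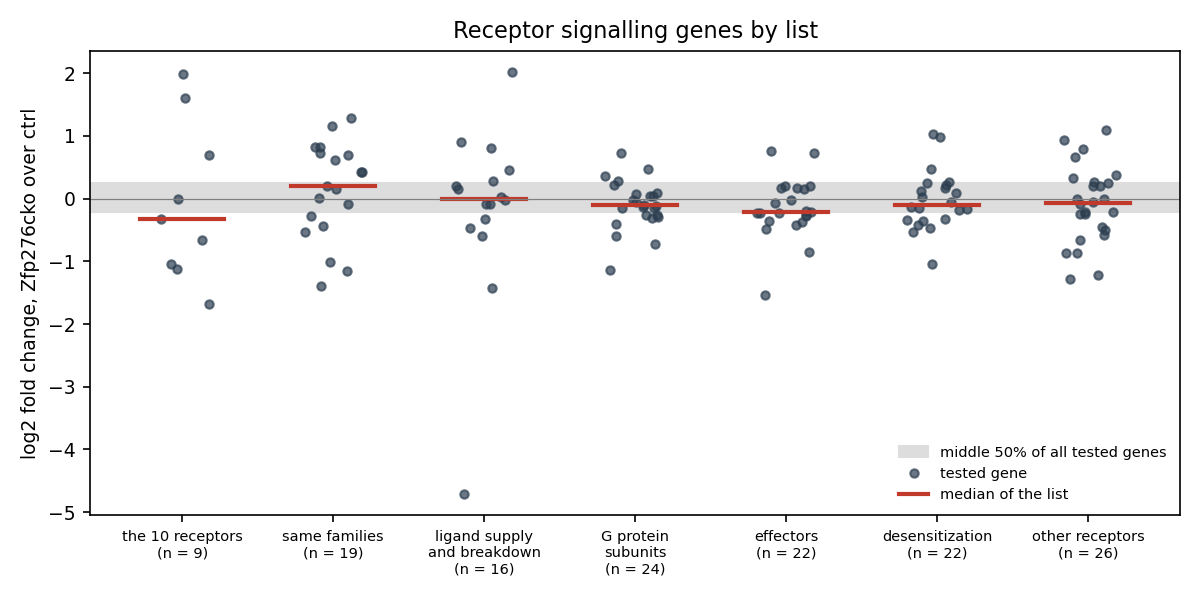
Log2 fold change of Zfp276cko over ctrl for every tested gene of 7 lists, with the list median in red; the grey band runs from the lower to the upper quartile of all tested genes (−0.21 to 0.25). Medians run from −0.33 for the 9 tested receptors to 0.20 for other members of their families, and the lowest point is Col3a1, a ligand of Adgrg1, with 2005 counts in ctrl replicate 1 and 30 to 55 counts in the other libraries.

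The stage markers of the lineage were set beside the receptors. Of 18 OL markers, 13 (72.2%) lay below and 1 (5.56%) above the ctrl range in each Zfp276cko library, against 23.7% and 26.8% of all tested genes. Their median log2 fold change was −0.86. Their summed normalized counts were 463768 and 580873 in ctrl against 307073 and 316115 in Zfp276cko cells. Of 11 OPC markers, 5 (45.5%) lay below and 2 (18.2%) above, with a median of −0.13. The ctrl replicates had no common order over the OL markers: 8 of the 18 were higher in ctrl replicate 1, as were Gpr17, Gpr37 and S1pr5, and 10 were higher in ctrl replicate 2, as was Lpar1. Mbp had 118071 normalized counts in ctrl replicate 1 and 177958 in ctrl replicate 2, whereas Mog had 1996 and 1794. Opalin, a late OL marker, was higher in ctrl replicate 1, with 1504 normalized counts against 215 in ctrl replicate 2 and 98.6 and 98.8 in the Zfp276cko libraries.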

How the data were processed

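Stranded mRNA libraries of 2 ctrl and 2 Zfp276cko cultures were sequenced as single-end reads of 101 bp. The authors mapped the reads to mm10 with STAR 2.5.4a and deposited unnormalized counts of uniquely mapped reads per Ensembl gene. The methods name HTSeq for the counting and the submitters' processing notes list featureCounts 1.5.1. Gene positions and exonic lengths came from GENCODE M21, which is on the same build, and the Ensembl release of the files was not checked.

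Counts were analysed in R 4.3.3 with edgeR 4.0.16, DESeq2 1.42.0 and limma 3.58.1. Of 53465 genes, 15766 passed edgeR's filterByExpr function, among them 9 of the 10 receptors, and these held 99.9% of the counts. After TMM normalization the genotypes were compared with the quasi-likelihood test (legacy setting on) and Benjamini-Hochberg adjustment over all tested genes. The thresholds follow the methods of the study. P-values rest on the spread between 2 preparations per genotype, pooled over both genotypes and shared in part over genes. This pooled spread lies between the biological coefficients of variation of 0.354 in ctrl and 0.0480 in Zfp276cko. The scripts were tested on simulated counts. All receptors are described, all family members with a mean of at least 20 normalized counts, and the 4 genes with the smallest p of each other list. The receptors and lists were chosen with earlier results of these data known. Ratio pairs, Col3a1, Col1a2, Acta2, Pecam1, Kdr, Flt1, Mog, Opalin, Lims2 and the Plcb genes other than Plcb1 were picked with their values in view. Alternatives were other size factors, other filters on low counts, DESeq2, limma voom, robust and legacy-off fits, a replicate block, other call rules and leaving out each library.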

Additional observations from a re-analysis of the deposited data

How the results depend on the processing

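Of 107 receptor values under 12 alternatives, 89 kept their direction and stayed uncalled, 15 kept their direction and became calls, and 3 changed sign. The sign changes were all in Adgrg1, at 0.019 without a filter on low counts, 0.0076 with at least 10 counts in every library and 0.0051 without Zfp276cko replicate 2, and leaving out single libraries moved its value between −0.012 and 0.0051. DESeq2 called 3 receptors lower and 1 higher, and 339 genes lower and 450 higher. By unadjusted p with the thresholds on fold change and mean, 4 receptors were lower and 2 higher, and 476 genes lower and 806 higher. With no filter on low counts, calls went to 8 genes that were higher and to 0 receptors. With each library left out in turn, between 0 and 4 receptors were called lower and between 0 and 2 higher, and between 0 and 1286 genes lower and between 0 and 1792 higher. The calls came from leaving out a ctrl library. The fit then takes its spread from the close Zfp276cko replicates and assumes that the lone ctrl library varies like them. Without ctrl replicate 1, 3 receptors were called lower and 2 higher, and without ctrl replicate 2, 4 and 2. Without ctrl replicate 1, 952 genes were called lower and 1689 higher. The legacy-off fit was chosen after the data were seen, and it, limma voom and the robust fit called 0 genes. In the fit with a replicate block 0 genes were called, and Lpar1 had a log2 fold change of −1.68. The replicate numbers share no more than a number: the deviations of ctrl replicate 1 and Zfp276cko replicate 1 from their group means had a correlation of 0.0067 over 14324 genes, which are not independent replicates. The number of libraries limits all comparisons, and for Chrm3 and Oprk1 the depth does too.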

Other observations

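Other receptors studied in oligodendroglia were listed as well, and 26 of 31 were tested. Of these, 4 (15.4%) lay below and 8 (30.8%) above the ctrl range in each Zfp276cko library, against 23.7% and 26.8% of all tested genes. The median log2 fold change was −0.07. EdgeR called 0, and DESeq2 called 1 lower, against 2.3% of the genes to which it gave an adjusted p. Gabbr2, a subunit of the GABA-B receptor, stood at 269.5 (ctrl 1), 390.5 (ctrl 2), 132 (Zfp276cko 1) and 153 (Zfp276cko 2) normalized counts (log2 fold change −1.21, SE 0.26, edgeR adjusted p = 0.183, 0.00627 from DESeq2). Lgr5, a receptor for R-spondins, had 94.98 and 129 in ctrl against 43.4 and 49.0 in Zfp276cko cells (−1.28, edgeR adjusted p = 0.186, 0.0509 from DESeq2). The adhesion receptors Adgrb3 (0.32, adjusted p = 0.270) and Adgrl3 (0.25, adjusted p = 0.312) lay above the ctrl range in each Zfp276cko library, with differences between genotypes that were small in size and larger than the spread between the replicates.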
